A study of Mus musculus with 7 samples.

Results

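Accessible chromatin was examined at 10 genes that mark Kupffer cells, the resident macrophages of the liver, or macrophages in general: Clec4f, Vsig4, Timd4, Marco, Cd5l, Cd163, Csf1r, Adgre1, Spi1 and Lyz2. The genes were chosen by name with earlier results of these data known, and their regions were those of the 55680 consensus regions that overlapped a gene body or the 10 kb on either side of it (GENCODE M21, GRCm38). This gave 12 regions at 3 genes: 3 at Clec4f, 3 at Csf1r and 6 at Spi1. The other 7 genes held no region. The data were ATAC-seq libraries, made with a transposase that inserts adapters where DNA is exposed, from whole liver of male C57BL/6N mice, for which no treatment or genetic change is named, with 3 samples from young mice (3 months) and 4 from aged mice (18 months). The 4 aged samples came from 3 animals, 1 of which gave samples from 2 lobules, and which samples share it is not stated, so p-values treat related samples as separate. The paper itself describes the 4 aged samples as biological replicates, which differs from this count of animals. Counts in regions summed to between 4474652 and 25461110 per library. A region was recorded only where at least 2 of the 7 libraries had a peak, whatever their age, so that a site open at 1 age alone could enter the set, and which libraries supplied each peak was not analysed here.

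Kupffer cells line the liver sinusoids, take up particles, old red cells and microbial products from the blood, and depend on signalling through the receptor CSF1R for their survival. Their identity is set by general macrophage regulators, foremost the ETS factor PU.1 encoded by Spi1, together with factors that the liver niche induces. CLEC4F is a lectin found in rodents almost only on Kupffer cells, and VSIG4, TIMD4, MARCO, CD5L and CD163 are receptors or secreted proteins typical of resident macrophages. Hepatocytes supply most nuclei of whole liver, so signal from macrophages comes from a minority of the nuclei. Which cells supplied the signal at each region was not measured. Fewer macrophages and less accessible chromatin per macrophage cannot be told apart in such tissue.

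The sequences below belong to regions at Clec4f, the member most restricted to Kupffer cells, and at Spi1, the myeloid regulator, on GRCm38. They show the part of the Clec4f promoter region upstream of the gene (chr6:83656188-83656397, minus strand, 210 bases), a stretch of 100 bases at the edge of the farther of the regions beyond the Clec4f 3′ end (chr6:83637295-83637394, minus strand), and the central 300 bases of both regions upstream of the main Spi1 start (chr2:91082771-91083070 and chr2:91084490-91084789, plus strand). Capitals mark matches to GAGGAA or its reverse complement, extended to GAGGAAGT where those letters are present, the core and a fuller form of the sequence that PU.1 binds.
Clec4f promoter: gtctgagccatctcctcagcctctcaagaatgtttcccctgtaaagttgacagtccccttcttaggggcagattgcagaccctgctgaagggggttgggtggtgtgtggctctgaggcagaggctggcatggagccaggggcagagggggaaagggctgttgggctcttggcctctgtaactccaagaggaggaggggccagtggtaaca
Clec4f downstream: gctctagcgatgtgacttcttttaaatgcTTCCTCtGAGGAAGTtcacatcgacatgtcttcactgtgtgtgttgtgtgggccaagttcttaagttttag
Spi1 first upstream: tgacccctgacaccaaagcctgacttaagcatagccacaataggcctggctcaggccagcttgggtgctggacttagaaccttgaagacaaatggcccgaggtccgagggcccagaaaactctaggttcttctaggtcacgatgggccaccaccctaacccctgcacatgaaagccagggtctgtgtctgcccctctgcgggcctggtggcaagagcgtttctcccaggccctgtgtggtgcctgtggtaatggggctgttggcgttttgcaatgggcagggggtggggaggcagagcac
Spi1 second upstream: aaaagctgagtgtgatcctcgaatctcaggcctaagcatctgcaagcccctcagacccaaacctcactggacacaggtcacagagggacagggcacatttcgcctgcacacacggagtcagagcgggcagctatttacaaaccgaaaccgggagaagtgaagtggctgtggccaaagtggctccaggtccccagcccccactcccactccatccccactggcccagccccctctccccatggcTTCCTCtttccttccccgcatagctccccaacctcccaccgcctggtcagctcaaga
GAGGAAGT, searched on both strands, was found in the central 300 bases of 1 of the 12 regions and 2.39% of all regions. The shorter GAGGAA, added to the search after values were seen and contained in the former, was found in 4 of 12 and 25.9%. TGCTGAC, part of the sequence that MAF factors bind, was found in 1 of 12 and 6.05%. TTGCGCAA, which C/EBP factors bind, and CAAAGTCCA, which HNF4A binds, were found in 0 of 12, and in 0.163% and 1.41% of all regions. Over whole regions GAGGAAGT was present in 2 of 12, the Clec4f region shown and the region at the end of Csf1r, and in 7.32% of all regions. A match describes the letters only.

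Most of the macrophage genes gave no accessible region in whole liver. Among the 6 surface markers and secreted proteins of resident macrophages, only Clec4f held one. No region lay within 50 kb of Vsig4, which encodes a complement receptor, Timd4, which encodes a phosphatidylserine receptor, Marco, a scavenger receptor gene, or Cd5l, which encodes a secreted inhibitor of apoptosis. Their nearest regions were 116.271, 103.483, 116.849 and 137.207 kb away. For Cd163, the receptor for haptoglobin and haemoglobin, the nearest region was 31.047 kb away, for Lyz2, which encodes lysozyme, it was 37.920 kb away, and for Adgre1, which encodes the F4/80 antigen, it was 16.120 kb away. For comparison, 5720 of 21951 protein-coding genes (26.1%) held no region in the same window. These 7 genes have no count and enter no comparison below. Between 10 and 50 kb from Adgre1, Cd163 and Lyz2 lay 6 regions with log2 fold changes from -0.62 to 0.46, of which 0 were called (edgeR adjusted p from 0.0758 to 0.944).

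At the 3 measured genes accessibility was lower in aged liver in 11 of 12 regions by point estimate, where 53.4% of all regions had one below 0. The last of the Spi1 regions turned above 0 without aged replicate 4 or without young replicate 3. In all, 0 of 12 regions passed an adjusted p of 0.05 in edgeR's quasi-likelihood test in either direction. Over all regions, 3.3% were less accessible and 2.44% more accessible with age at that threshold. This balance turned with the tool and scaling, with 3.47% less and 4.96% more accessible by DESeq2, and 2043 regions less and 3497 more accessible with offsets on GC content. Without adjustment, 5 of the 12 had an edgeR p under 0.05, all of them lower, where 12.7% of all regions were lower and 11.9% higher by that measure. The number was 4 with DESeq2 (9.88% of all regions) and 8 with limma voom (14.3%), neither of which called a member region after adjustment. The smallest adjusted p was 0.0984. Accessibility is given below in CPM, counts scaled to library size with TMM normalization. Every aged sample lay below every young sample in 2 of the 12 regions and above in 0, where the former held for 11.6% of all regions. Summed over the 12 regions, accessibility was 102.0, 87.9 and 91.7 CPM in young replicates 1 to 3 and 54.2, 75.7, 78.7 and 70.0 CPM in aged replicates 1 to 4. The sums did not overlap between the ages, with a mean of 93.9 CPM in young samples (SD 7.27, n = 3) and 69.6 CPM in aged samples (SD 10.9, n = 4). Sums over other gene lists did not overlap either, lower in aged samples for neutrophil genes (49.1 to 50.3 against 44.8 to 47.1 CPM) and higher for lymphocyte genes (247.0 to 260.3 against 277.7 to 318.2 CPM) and further Kupffer cell genes (263.9 to 279.4 against 279.5 to 335.7 CPM). Such sums take in the 10 kb flanks and are weighted towards strong regions. The lymphocyte sum came from 4 genes, 1 of them with a promoter region, and the further Kupffer cell sum from 6, 4 of them with one. Their regions had median log2 fold changes of -0.11 and 0.03, so the higher sums do not show a rise across either list. Aged replicate 1 was the lowest of all 7 samples in 7 of the 12 regions, and aged replicate 3 in 0.

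**Figure D1:**
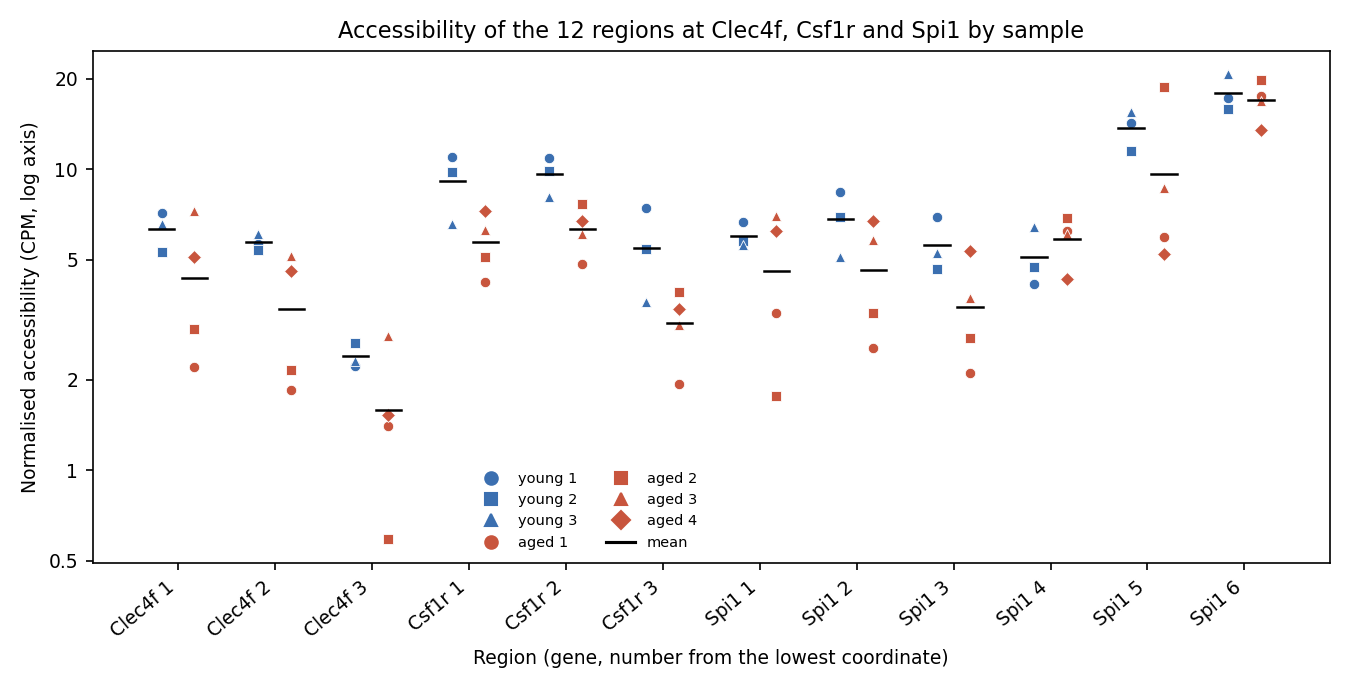
Normalised accessibility (CPM, log axis) of each of the 12 regions in each sample, with young samples in blue, aged samples in red, a marker shape for each replicate number and a black bar at the mean of the group. In Clec4f region 2 and Csf1r region 2 every aged sample sits below every young sample, and the other 10 regions overlap between the ages.

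Clec4f was covered at its promoter and by a pair of regions beyond its 3′ end. The promoter region (chromosome 6, 83656039 to 83656397) spans the annotated start and the 5′ UTR. Its accessibility was 2.22, 2.65 and 2.30 CPM in young replicates 1 to 3 and 1.41, 0.588, 2.80 and 1.53 CPM in aged replicates 1 to 4, and the library of aged replicate 2 held 3 reads there. Aged replicates 1, 2 and 4 were below all young samples and aged replicate 3 was above them, so that the groups overlapped. The log2 fold change was -0.66 (SE 0.39, edgeR adjusted p = 0.314), and it was -0.29 (adjusted p = 0.771) with offsets on mean abundance. The region nearest to the 3′ end (83642947 to 83643982, 560 bp past it) had 5.65, 5.40 and 6.08 CPM in young replicates and 1.84, 2.16, 5.14 and 4.58 CPM in aged replicates. Here all aged samples were lower, by a wide margin in aged replicates 1 and 2 and by a narrow one in replicates 3 and 4, with a log2 fold change of -0.78 (SE 0.33, edgeR adjusted p = 0.168), which was -0.51 without aged replicate 1. The farther region (83636155 to 83637394, 7148 bp past the 3′ end), which carries the GAGGAAGT match printed above, had 7.13, 5.29 and 6.58 CPM in young and 2.196, 2.94, 7.24 and 5.09 CPM in aged replicates. Aged replicate 3 again lay above the young samples. The log2 fold change was -0.59 (SE 0.34, edgeR adjusted p = 0.311), and it was -0.31 without aged replicate 1 and -0.89 without aged replicate 3. At all 3 Clec4f regions aged replicates 1 and 2 were low and aged replicate 3 was close to young liver, and the spread among aged samples exceeded that among young samples.

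**Figure D2:**
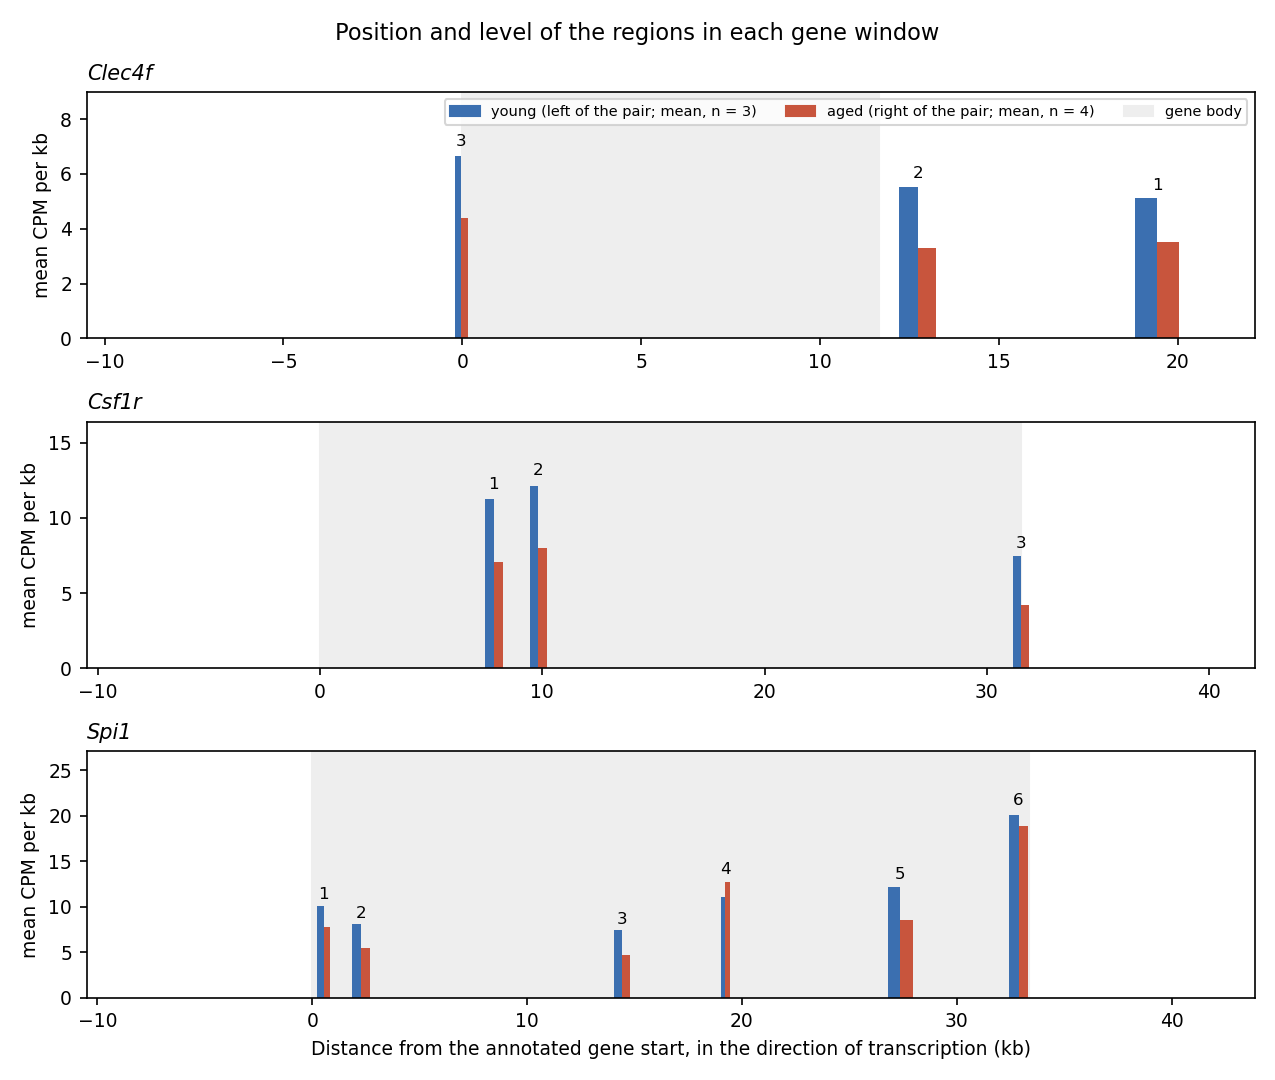
Position of the regions relative to the annotated start of each gene (kb, in the direction of transcription), drawn to scale in width, with the left part of each bar giving the young mean and the right part the aged mean in CPM per kb of region. Clec4f region 3 sits at the gene start and the others past the gene body, Csf1r has no region at its start, and only Spi1 region 4 is higher in aged liver.

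Csf1r encodes the receptor for the cytokines CSF1 and IL-34 that macrophages need to survive. It had no region at its promoter. The first region (chromosome 18, 61108003 to 61108810) lies in an intron with its middle 2.83 kb after the RefSeq start. Introns of Csf1r are known to hold the fms-intronic regulatory element, a macrophage enhancer, and whether this region covers it was not determined. Accessibility was 11.0, 9.79 and 6.58 CPM in young replicates 1 to 3 and 4.22, 5.10, 6.30 and 7.25 CPM in aged replicates 1 to 4. Young replicate 3 fell between aged replicates 3 and 4, and the other samples were separated by age. The log2 fold change was -0.71 (SE 0.25, edgeR adjusted p = 0.102), and without aged replicate 4 it was -0.87 with an adjusted p of 0.0499. The second region (61110026 to 61110816), which overlaps an exon and is the strongest of the gene, had 10.9, 9.86 and 8.06 CPM in young and 4.83, 7.65, 6.07 and 6.75 CPM in aged replicates. Its groups did not overlap, and the log2 fold change was -0.63 (SE 0.22, edgeR adjusted p = 0.0984). The third region (61131764 to 61132497) covers the 3′ end, where the 3′ UTRs of Csf1r and its neighbour Hmgxb3 meet, so its signal cannot be assigned to 1 gene. It averaged 5.49 CPM in young samples (SD 1.89, n = 3) and 3.08 CPM in aged samples (SD 0.848, n = 4), and had a log2 fold change of -0.90 (SE 0.31, edgeR adjusted p = 0.0994), the lowest of the 12.

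Spi1 encodes PU.1, which opens macrophage and B-cell enhancers. Of its 6 regions, 5 had lower point estimates in aged liver. Upstream of the main start lie a pair of regions inside an intron of a longer annotated transcript, the part of the locus where a distal enhancer, the upstream regulatory element, is known to act in myeloid cells. Whether these regions cover it was not determined. The first (chromosome 2, 91082625 to 91083218, centred 13.8 kb upstream of the RefSeq start) had 6.66, 5.78 and 5.59 CPM in young and 3.34, 1.77, 7.004 and 6.24 CPM in aged replicates. Aged replicates 1 and 2 were low and aged replicates 3 and 4 were as high as the young samples. The log2 fold change was -0.41 (SE 0.34, edgeR adjusted p = 0.490), and it ran from -0.64 to -0.18 when single aged samples were left out. The second (91084219 to 91085062, centred 12.04 kb upstream) averaged 6.82 CPM in young samples (SD 1.67, n = 3) and 4.62 CPM in aged samples (SD 2.00, n = 4), and had a log2 fold change of -0.61 (SE 0.32, edgeR adjusted p = 0.260) that was -0.36 without aged replicate 1 and -0.92 without aged replicate 4.

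The Spi1 promoter region (91096442 to 91097190) had 6.94, 4.65 and 5.26 CPM in young replicates 1 to 3 and 2.11, 2.75, 3.74 and 5.35 CPM in aged replicates 1 to 4. Aged replicates 1 to 3 were below the young samples and aged replicate 4 was among them, and the log2 fold change was -0.69 (SE 0.32, edgeR adjusted p = 0.197). Downstream in the gene the pattern was mixed. The intronic region from 91101392 to 91101853 was the only member region with a point estimate above 0, at 0.22 (SE 0.26, edgeR adjusted p = 0.632), which ran from 0.11 without young replicate 1 to 0.39 without young replicate 3. In the next intronic region (91109201 to 91110328) young replicates had 14.3, 11.5 and 15.5 CPM and aged replicates had 5.97, 18.8, 8.64 and 5.22 CPM. Aged replicate 2 was the highest of all samples there while the other aged samples were the lowest, giving a log2 fold change of -0.55 (SE 0.34, edgeR adjusted p = 0.347), and without aged replicate 2 it was -1.08 with an adjusted p of 0.0294, while it was -0.35 without aged replicate 1 and -0.33 without aged replicate 4. The region over the last exon (91114822 to 91115717), the strongest of the 12, had 17.2, 15.9 and 20.7 CPM in young and 17.6, 19.8, 16.8 and 13.5 CPM in aged replicates. The ages overlapped fully apart from aged replicate 4, and the log2 fold change was -0.08 (SE 0.17, edgeR adjusted p = 0.821), or 0.031 when aged replicate 4 and 0.039 when young replicate 3 was left out.

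The regions were weak to moderate in strength. Per kb of region, mean accessibility ranged from 4.20 CPM at the farther Clec4f region to 19.4 CPM at the last exon of Spi1, against a median of 10.8 CPM per kb over all regions. Since fold changes with age differ by the strength of a region in these libraries, each region was set beside the 500 regions next above and the 500 next below it in summed count. The median log2 fold change of the 12 was -0.62, the medians of their similar regions ranged from -0.31 to 0.023 with a median of -0.21, and the median of all regions was -0.035. Without aged replicate 1 the median of the 12 was -0.41. Of the 12, 11 were below the median of their similar regions and 8 below the lower quartile. The first Csf1r region, for example, was lower than all but 7.9% of its similar regions, whose median was -0.13, and the Clec4f promoter region than all but 25.9% of its own, whose median was -0.31. Library offsets fitted on mean abundance put the median of the 12 at -0.42 and that of all regions at 0.0074. Beside the Clec4f promoter, these offsets moved by over 1.5 times the values of the farther Clec4f region (to -0.35), of the Spi1 promoter (-0.44), of both upstream Spi1 regions (-0.18 and -0.39) and of the first intronic Spi1 region after the promoter (0.44), and they turned the direction of none of the 12. These counts and medians describe regions of only 3 genes, 6 of them in Spi1, and carry no test.

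**Figure D3:**
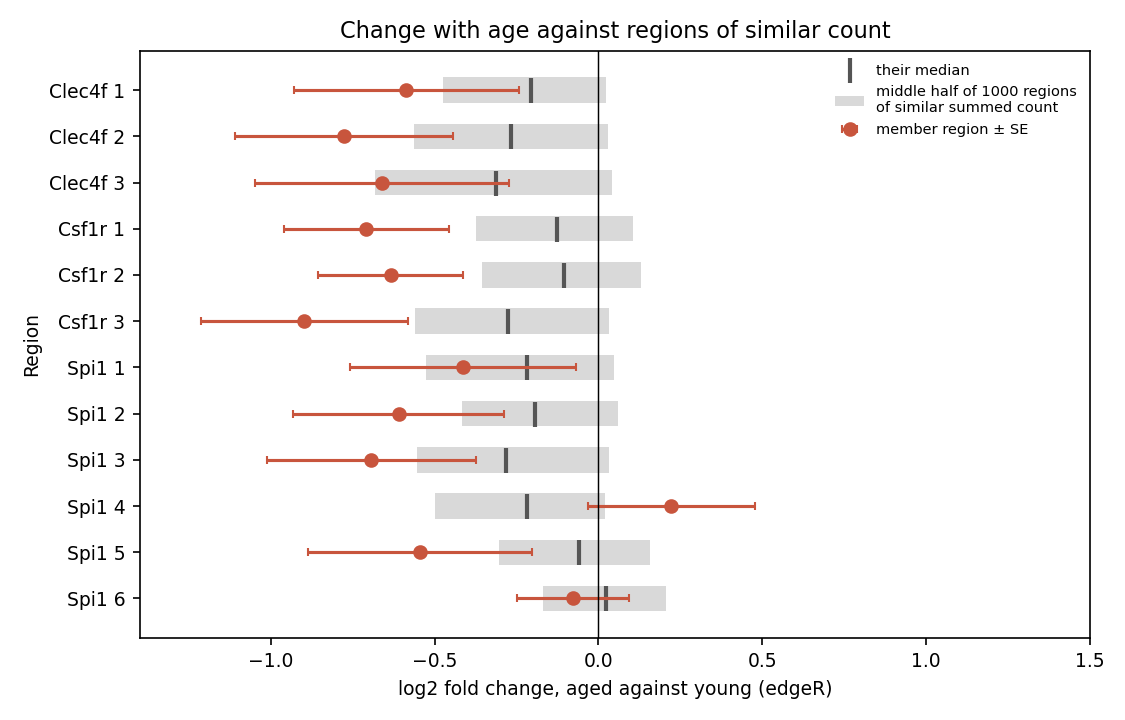
Log2 fold change of each region in aged against young liver (red, with the SE from edgeR) beside the quartile range (grey) and median (dark tick) of the 1000 regions of most similar summed count. Of the 12 points, 11 sit left of the tick and 8 left of the grey bar, and Spi1 region 4 sits to the right of its bar.

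Counts were also summed over the regions of each gene window, which gives 1 value for a gene, and tested over all 28925 genes that hold a region. CPM here are scaled to the counts in gene windows, so they are not on the scale of the single regions. The Csf1r window had 15.9, 13.7 and 9.98 CPM in young replicates 1 to 3 and 5.71, 9.04, 8.01 and 8.997 CPM in aged replicates 1 to 4. All 4 aged samples were below every young sample, which held for 12.7% of all gene windows, and young replicate 3 was close to the highest aged samples. The window fell by 0.77 on the log2 scale (SE 0.20, edgeR adjusted p = 0.0439), which is 41.2% lower accessibility. The sum includes the region shared with Hmgxb3. Without it, a choice made after values were seen, the log2 fold change was -0.72 (SE 0.19, edgeR adjusted p = 0.0467). Csf1r was thus 1 of 3 measured members less accessible, where 4.18% of all gene windows were less and 2.58% more accessible, and 0 of 3 were more accessible. The call rested on several samples, since the adjusted p was 0.141 without young replicate 1, 0.122 without young replicate 2, and 0.0999, 0.0516 and 0.0990 when aged replicates 1, 2 and 3 were left out in turn, with log2 fold changes from -0.83 to -0.62. Because 2 of the aged samples are from the same animal, each pair was also summed. Of the 6 pairs, 3 kept the call and 3 did not (adjusted p = 0.0808, 0.0686 and 0.0578 for replicates 1 and 3, 2 and 3, and 3 and 4), with log2 fold changes from -0.84 to -0.75 over the 6. Offsets fitted on mean abundance gave -0.62 with an adjusted p of 0.123.

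The Clec4f window had 8.10, 7.31 and 8.18 CPM in young and 2.83, 3.09, 7.89 and 5.78 CPM in aged replicates. Aged replicate 3 lay among the young samples and the other aged samples were lower, with a log2 fold change of -0.72 (SE 0.30, edgeR adjusted p = 0.143). The Spi1 window had 31.2, 27.1 and 32.0 CPM in young and 19.6, 28.9, 25.01 and 21.3 CPM in aged replicates. Aged replicate 2 lay among the young samples, and the log2 fold change was -0.35 (SE 0.13, edgeR adjusted p = 0.113). The call at Csf1r and its absence at Clec4f and Spi1 do not show that the genes differ, which was not tested.

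**Figure D4:**
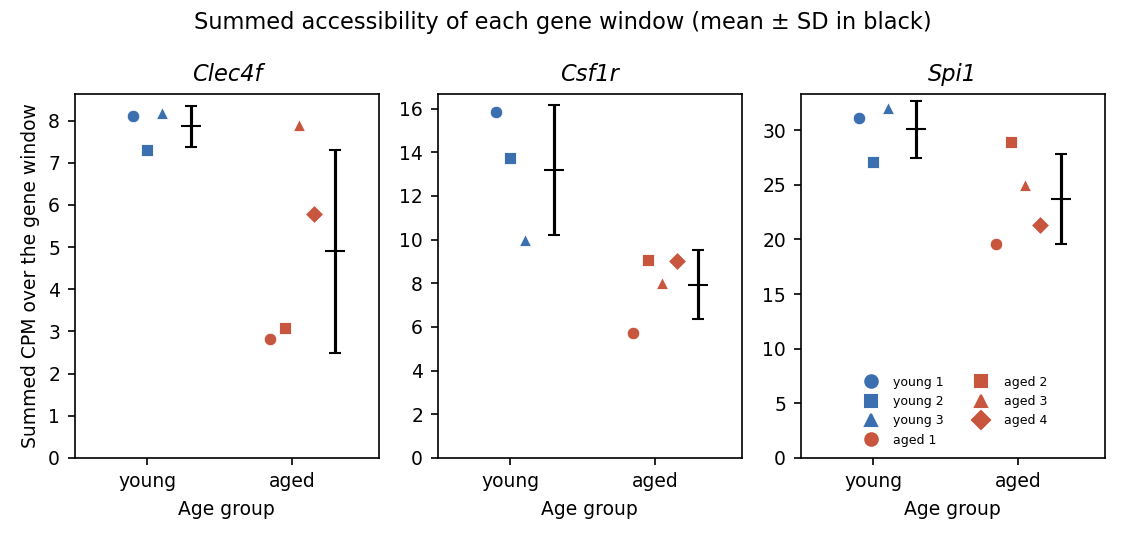
Summed accessibility of the Clec4f, Csf1r and Spi1 windows (CPM scaled to counts in gene windows, axes from 0) in each young (blue) and aged (red) sample, with the mean and SD in black. The ages do not overlap at Csf1r, aged replicate 3 is at the young level at Clec4f, and aged replicate 2 is at the young level at Spi1.

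Other genes of the macrophage programme were read from 5 lists with 64 genes: further Kupffer cell genes, further pan-macrophage genes, genes of monocytes and recruited macrophages, macrophage transcription factors, and CSF1R ligands with niche signals. Of these genes, 51 held a region, with 171 regions in all, of which 4 were less and 5 more accessible in aged liver, beside 3.3% and 2.44% of all regions, with a median log2 fold change of -0.07. Tlr4, the receptor for endotoxin, had a region in its gene body on chromosome 4 that averaged 8.29 CPM in young samples (SD 2.02, n = 3). It rose to 16.3 CPM in aged samples (SD 2.96, n = 4), by 0.97 on the log2 scale (SE 0.21, edgeR adjusted p = 0.0229). The Tlr4 promoter region had a log2 fold change of -0.22 (edgeR adjusted p = 0.675). Rbpj, which relays Notch signals from the niche, had a gene body region on chromosome 5 that rose by 0.83 on the log2 scale (adjusted p = 0.0150), and its window was the only one of the 51 that passed the test, at 0.39 (adjusted p = 0.0281). The Mertk promoter, of a receptor for apoptotic cells, rose by 0.45 (adjusted p = 0.0359) and that of Nr1h3, which encodes LXR alpha, by 0.41 (adjusted p = 0.0418), while a region in Runx1, a gene of blood cell formation, and the weak promoter region of Aif1, which encodes the macrophage protein IBA1, had log2 fold changes of -1.26 (adjusted p = 0.0303) and -1.76 (adjusted p = 0.0459). The Aif1 window as a whole had a log2 fold change of 0.40 (edgeR adjusted p = 0.141). At Runx1 the window was at -0.10 (edgeR adjusted p = 0.712) and the stronger promoter region at -0.32 (adjusted p = 0.168). Offsets fitted on mean abundance left the adjusted p under 0.05 at Tlr4 (1.01) and Rbpj (0.82). The other 4 lost the call, with log2 fold changes of -1.11 at Runx1, -1.32 at Aif1, 0.16 at Mertk and 0.21 at Nr1h3. Of the 14 windows of pan-macrophage genes, 8 were below 0, with a median of -0.04 and a lowest edgeR adjusted p of 0.0614. The lowest 5, named after their values were seen, were Mpeg1, Mrc1, Tyrobp, Ctss and Laptm5 at -0.60, -0.60, -0.66, -0.68 and -0.66 (adjusted p from 0.0614 to 0.257), and the highest were Aif1 at 0.40 and Tlr4 at 0.44. The value of Ctss came from 1 region, which is not at its promoter. Several of these genes are also used by hepatocytes or endothelium.

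By list, the median log2 fold change of regions was 0.03 over 16 regions of further Kupffer cell genes, -0.21 over 41 of pan-macrophage genes, -0.02 over 33 of monocyte genes, 0.01 over 57 of transcription factors and -0.14 over 24 of CSF1R ligands and niche signals, beside -0.66 over the 3 regions of Clec4f and -0.61 over the 9 of Csf1r and Spi1. The regions of similar summed count had medians of 0.0041, -0.25, -0.05, -0.0066 and 0.0011 for the 5 lists in that order, -0.27 for Clec4f and -0.19 for Csf1r and Spi1. With abundance offsets the list medians became 0.13, -0.02, 0.02, -0.10 and -0.12, and those of the members -0.35 and -0.44. Csf1, which encodes a ligand of CSF1R, had a window log2 fold change of -0.11 (edgeR adjusted p = 0.457), and Il34, the other ligand gene, -0.03 (adjusted p = 0.923).

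Among markers of other liver cells, all 10 hepatocyte genes held regions, with a median log2 fold change of 0.14 over 98 regions. By edgeR, 6 were more and 2 less accessible, beside 2.44% and 3.3% of all regions. DESeq2 called 4.96% and 3.47% of all regions, and its calls within this list are not given here. With offsets on mean abundance the called regions at Ahsg (0.28), Serpinc1 (-0.73) and Apoa1 (0.07) lost the call (edgeR adjusted p = 0.158, 0.0684 and 0.779). Summed accessibility of the hepatocyte list ranged from 3299 to 4127 CPM in young and from 3644 to 4605 CPM in aged samples. Sinusoidal endothelial genes, which mark cells that share the sinusoid with Kupffer cells, had a median of -0.32 over 57 regions, with 0 called by edgeR (7 lower and 2 higher at an unadjusted p under 0.05, where all regions gave 12.7% and 11.9%). Of their 10 windows, 2 were less accessible, beside 4.18% of all gene windows: Pecam1 at -0.37 (adjusted p = 0.0480) and Fcgr2b at -0.47 (adjusted p = 0.0491). Of the 10 hepatocyte windows, 1 was more accessible, beside 2.58% of all: Apoa1 at 0.46 (adjusted p = 0.0270). The medians were -0.15 for stellate cells (16 regions), -0.11 for lymphocytes (12), -0.27 for neutrophils (6) and -0.05 for cholangiocytes (15), with 1 region more accessible in the lymphocyte list and 1 less accessible in the cholangiocyte list. The neutrophil regions came from 3 genes, of which 0 had a promoter region. Regions of similar summed count had medians of 0.08 for hepatocytes, -0.20 for sinusoidal endothelium, -0.27 for stellate cells, -0.14 for lymphocytes, -0.21 for neutrophils and -0.24 for cholangiocytes. With abundance offsets the median was 0.0077 for hepatocytes, -0.08 for sinusoidal endothelium, 0.16 for stellate cells, 0.0059 for lymphocytes, -0.06 for neutrophils and -0.0077 for cholangiocytes. The part of cell composition in the values at Clec4f, Csf1r and Spi1 was not tested.

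**Figure D5:**
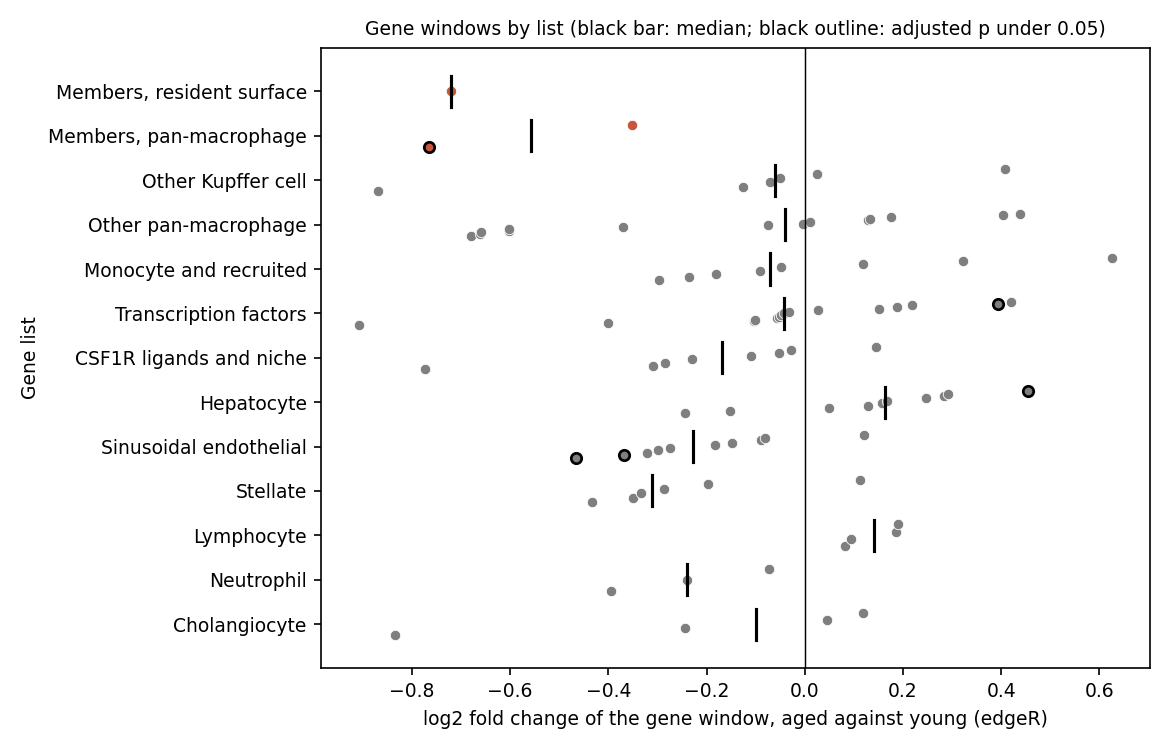
Log2 fold change of the gene windows in aged against young liver for each gene list, with 1 point for each gene that holds a region, a black bar at the median, red for the 3 measured members and a black outline where the adjusted p was under 0.05. The 3 members lie at -0.77, -0.72 and -0.35, the 5 other macrophage lists have medians from -0.17 to -0.04, and the sinusoidal endothelial, stellate, neutrophil and cholangiocyte medians are below 0, at -0.23, -0.31, -0.24 and -0.10.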

How the data were processed

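Raw counts of ATAC-seq reads in 55680 regions of GRCm38 were deposited for 7 libraries, without normalization. Per the labels and the methods, the authors trimmed reads with cutadapt 1.13, aligned them with Bowtie2 2.4.1, removed duplicates and mitochondrial reads, called peaks with MACS2 2.2.7, kept those shared by at least 2 libraries and counted with featureCounts. All 7 columns were matched to samples by name, with 0 left over. No molecular identifiers are named.

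Ages were compared with edgeR 4.0.16 (quasi-likelihood test, TMM, age as the only factor, Benjamini-Hochberg adjustment over all regions, threshold 0.05, R 4.3.3), and again on counts summed over each gene body with 10 kb on either side. SE is the log2 fold change divided by the square root of F. The fit was also run on simulated counts, and the outcome is not given here. Promoters were TSS ± 200 bp of GENCODE M21. Sequences were read from RefSeq's GRCm38.p6 with Python 3.11.15. The members and all gene lists were chosen with earlier results of these data known. Full values are given for promoter regions, the strongest region of each gene and called regions, where the strongest is that of highest mean log2 CPM. Values by sample were also given, by choice after they were seen, for the nearer downstream Clec4f region, the first Csf1r region and 2 further Spi1 regions. From other lists, at most 3 genes were named by the lowest adjusted p, and Csf1, Il34 and 5 pan-macrophage genes were named in addition, after their values were seen. Alternatives were DESeq2 1.42.0, limma 3.58.1 (voom), other scalings, filters and windows, left-out and summed samples and a replicate block. Libraries were checked for duplicates, and the 9 pairs of equal age differed by more than sampling noise (chi-square over its degrees of freedom, 2.40 to 6.07).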

Additional observations from a re-analysis of the deposited data

How the results depend on the processing

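The limits of these values are depth (3 to 421 reads per region and library), 3 measurable genes and aged samples that share an animal. Where a count or call changed, the cause was not tested unless the setting itself used fewer samples. The number of less accessible member regions was 0 under the alternatives run, except that leaving out single samples gave 0 to 1 (1 without aged replicate 2, at Spi1, and 1 without aged replicate 4, at Csf1r), and the number of genes with a called region was likewise 0 to 1. With windows of 50 kb on either side, 1 region was more accessible and 1 gene had a called region, the promoter of Madd beside Spi1 (0.48, edgeR adjusted p = 0.0204), and the median log2 fold change was -0.30. Under the other alternatives that median was -0.78 to -0.41. Total counts in regions moved the median of all regions to -0.15 and that of the 12 to -0.74.

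The number of less accessible gene windows, 1 (Csf1r), was 0 to 1 when single samples were left out, 0 with aged replicates 1 and 3, 2 and 3 or 3 and 4 summed, 0 with offsets on mean abundance, 0 at a threshold of 0.01, and 2 with aged replicates 2 and 4 summed, when Spi1 also passed (-0.42, adjusted p = 0.0486). Csf1r passed in 12 of 21 alternatives, with log2 fold changes from -0.91 to -0.62 and adjusted p from 0.00983 to 0.141. The last Spi1 region (-0.08, not called) turned to 0.031 with the replicate block, and leaving out single samples gave -0.16 to 0.039, above 0 when aged replicate 4 (0.031) or young replicate 3 was left out. The replicate numbers did not pair the samples, with correlations of deviations of -0.12, 0.056 and 0.030 for numbers 1 to 3. With the replicate block the log2 fold changes of the windows were -0.84 at Csf1r (adjusted p = 0.0458), -0.94 at Clec4f (0.0633) and -0.31 at Spi1 (0.178), and the block changed no call.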
